A study of Danio rerio with 30 samples.

Results

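Axon regeneration and growth cone genes were followed across adult zebrafish (Danio rerio) retinas injured by needle or by NMDA. The genes were chosen by name: gap43, stmn2a, stmn2b, tuba1a, tubb5, atf3, klf6a, klf7b, sox11a and sox11b. These 10 names led to 11 of the 32520 Ensembl genes in the tables, because part of the gene symbols are in capitals and without the paralog letter. The table lists stmn2a and stmn2b as 2 genes named STMN2, sox11a and sox11b as 2 genes named SOX11, and klf7b as either of 2 genes named KLF7. It does not say which is which, so these genes are given with their Ensembl IDs. gap43 is ENSDARG00000099744, TUBA1A is ENSDARG00000001889, tubb5 is ENSDARG00000037997, ATF3 is ENSDARG00000007823 and KLF6, taken as klf6a since klf6b has an entry of its own, is ENSDARG00000029072. All 11 genes passed the filter on low counts in both experiments.

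An axon that regrows after a lesion extends a growth cone, a motile tip that needs new membrane, actin and microtubules. In fish, unlike mammals, retinal ganglion cells regrow their axons after optic nerve injury, and gap43 and an alpha tubulin of the tuba1 family are classic markers of that growth. Transcription factors of the ATF/AP-1, Krüppel-like and SoxC families are linked with the programme in injured neurons, while many of the same genes are also active in developing neurons and dividing progenitors. In the zebrafish retina, Müller glia re-enter the cell cycle after injury and make new neurons, so these genes can be read in more than 1 cell type.

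Polyadenylated retinal RNA was sequenced in 30 libraries, with 3 in each of 10 groups. Only wild-type fish were used for the needle poke. Their retinas either had no injury and no treatment, or were taken 2 days after a poke through the back of the eye from fish kept in water with DMSO (the solvent), PLX3397 (pexidartinib, an inhibitor of the colony-stimulating factor 1 receptor that microglia and macrophages need) or ZVAD-fmk (an inhibitor of caspases). The uninjured control had no DMSO, so injury and solvent came together. The NMDA experiment used wild-type fish and fish labelled as csf1ra or csf1rb mutants, which are mutated in 1 of the paralogous receptor genes. They had uninjured retinas or retinas taken 2 days after NMDA, an excitotoxin, was injected into the eye. No drug was used there. Strain, alleles and exact age are not given in the sources used here. The library titles contain the letters MG, but the described material is whole retina dissolved in TRIzol, with no sorting of cells stated. The labels do not say whether the 3 libraries of a group came from separate fish, so p-values measure the spread between libraries, which may be technical.

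Depth was 38933511 to 92198888 counts for needle poke libraries and 22849708 to 41622168 counts for NMDA libraries. In the check of the mutated genes, csf1ra stood at 4.15 ± 0.211 CPM (mean ± SD, n = 3) in wild-type uninjured retinas and at 0.245 ± 0.0778 CPM in csf1ra mutants. csf1rb, a gene with few reads, stood at 0.595 ± 0.238 CPM in wild-type and 0.170 ± 0.174 CPM in csf1rb mutant uninjured retinas, and csf1ra was at 1.35 ± 0.466 CPM in the latter. The 4 needle poke groups each hold 1 library that an earlier analysis found apart from its group: untreated replicate 2, DMSO replicate 3, PLX3397 replicate 2 and ZVAD-fmk replicate 1. Each was also the farthest from the mean of the other libraries of its group, at a root mean square distance of 1.04, 0.98, 0.80 and 0.54 log2 units over all tested genes. In the same order, the other libraries stood at 0.84 and 0.86, 0.75 and 0.76, 0.68 and 0.60, and 0.48 and 0.52. ZVAD-fmk replicate 1 thus barely differed, and 1 library of each group is always the farthest. Of all tested genes, 8.39% had their highest and 8.70% their lowest level in that library in all 4 groups. Levels below are CPM, read counts scaled to a common library size with TMM factors, and are compared between samples of 1 gene, not between genes.

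After a needle poke with DMSO, the growth cone gene gap43 and both tubulins rose most, and both SOX11 genes rose as well. Of the 11 genes, 5 were higher and 1 was lower than in untreated uninjured retinas (edgeR's quasi-likelihood test, adjusted p under 0.05), where 18.2% of the 21334 tested genes were higher and 13.4% lower. The median log2 change was 0.37 over the 11 genes and -0.03 over all tested genes.

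gap43 encodes a protein of the growth cone membrane that neurons make while their axons grow. It stood at 11.9, 5.34 and 12.6 CPM in the 3 untreated uninjured libraries and at 243, 268 and 242 CPM after the poke with DMSO. The groups were far apart and the injured libraries lay close together, with a 25.3-fold ratio of means and a log2 change of 4.67 (SE 0.40, adjusted p = 1.7e-06, edgeR).

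The stathmin genes, whose proteins bind tubulin and set how microtubules turn over in growth cones, did not pass the test. STMN2 ENSDARG00000033234 was at 45.6, 24.4 and 41.3 CPM without injury and at 44.8, 45.5 and 39.6 CPM after the poke, so the groups overlapped. STMN2 ENSDARG00000070537 was at 50.0, 24.4 and 48.2 CPM without injury and 58.9, 54.0 and 45.0 CPM after it. Their log2 changes were 0.23 (SE 0.30) and 0.37 (SE 0.32).

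Tubulins build the microtubules of the axon. TUBA1A, an alpha tubulin, was at 135, 119 and 135 CPM without injury and at 457, 437 and 555 CPM after the poke, a log2 rise of 1.90 (SE 0.12, adjusted p = 1.6e-07, edgeR). The beta tubulin tubb5 was at 56.4, 65.5 and 56.4 CPM without injury and at 281, 269 and 317 CPM after it. The lowest injured library of each tubulin stood well above the highest uninjured one, and tubb5 rose by 2.28 on the log2 scale (SE 0.14, adjusted p = 1.0e-07, edgeR).

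Among the transcription factors, the SoxC genes rose and the injury factor did not pass the test. SOX11 ENSDARG00000095743 rose from 54.5, 44.5 and 48.0 CPM to 134, 142 and 134 CPM, by 1.48 on the log2 scale (SE 0.15, adjusted p = 7.5e-06, edgeR). SOX11 ENSDARG00000077811 rose from 57.4, 35.2 and 43.4 CPM to 87.7, 99.8 and 88.8 CPM, by 1.02 (SE 0.26, adjusted p = 0.0087, edgeR). ATF3, a stress-induced factor that is an early marker of axon injury in mammals, was already high in uninjured retinas, at 712, 918 and 646 CPM, and stood at 717, 708 and 924 CPM after the poke. Its groups overlapped, and its log2 change was 0.05 (SE 0.30).

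The Krüppel-like factors, zinc finger proteins of which KLF6 and KLF7 promote axon growth in experiments on fish and mammals, showed little or an opposite change. KLF6 was at 206, 455 and 245 CPM without injury and at 265, 269 and 366 CPM after it, a log2 change of -0.01 (SE 0.36) that did not pass the test. KLF7 ENSDARG00000043821 was at 53.5, 47.1 and 50.5 CPM and then at 55.4, 62.7 and 63.8 CPM. These libraries did not overlap, but the log2 change of 0.27 (SE 0.15) did not pass the test. KLF7 ENSDARG00000073857, with far fewer reads, was at 10.6, 2.18 and 7.30 CPM and then at 2.19, 1.95 and 2.31 CPM, and fell by 1.63 on the log2 scale (SE 0.46, adjusted p = 0.015, edgeR). Its groups overlapped, and the fall no longer passed without untreated replicate 1 or without DMSO replicate 2.

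ATF3 and KLF6 had their highest level of each group in the library that stood apart, in all 4 groups. In the same 4 libraries gap43, both STMN2 genes and SOX11 ENSDARG00000095743 had the lowest level of each group. Without these 4 libraries the log2 change of KLF6 after the poke was 0.26, against -0.01 with them. The 4 were picked from these same data and held the highest KLF6 of each group. Leaving them out narrows its spread by construction, so no p-value is given for that change. What sets these libraries apart was not tested.

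**Figure D1:**
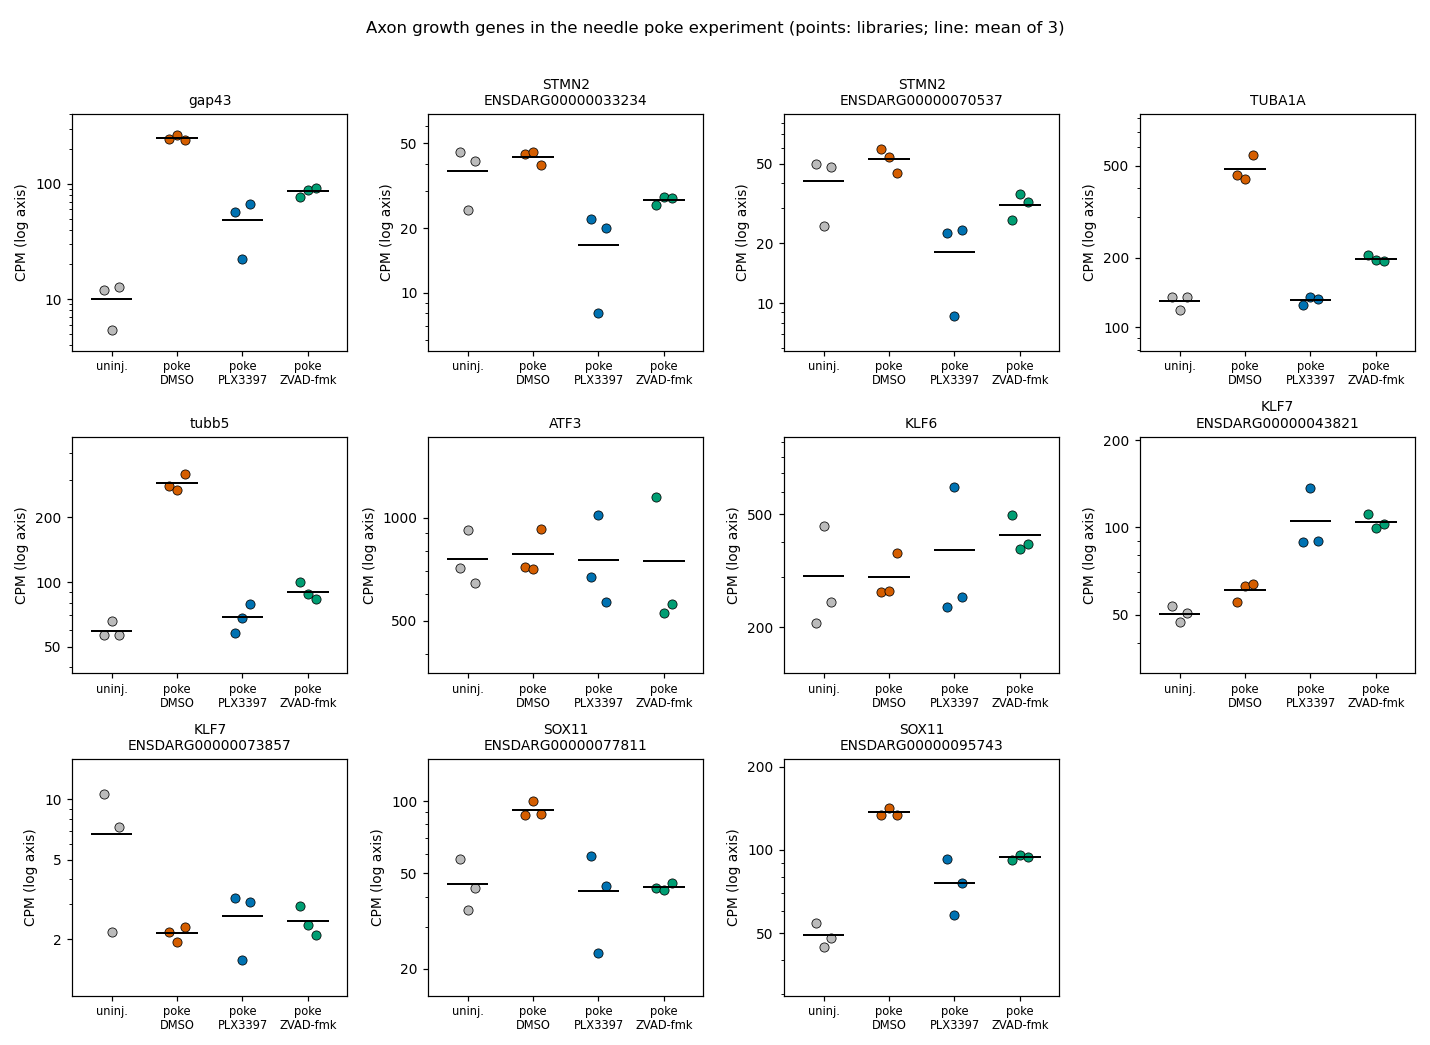
Levels of the 11 genes in the needle poke experiment, in CPM on log axes, with 1 point per library and a line at the mean of 3. gap43, TUBA1A and tubb5 are high in all 3 DMSO libraries and lower with either drug, while ATF3 has 1 high library in each group.

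Fish kept in PLX3397 had lower levels of most of these genes at the same time after the poke. Of the 11, 1 was higher and 7 were lower than with DMSO, where 16.5% of all tested genes were higher and 17.7% lower. The median log2 change was -1.13 over the 11 genes and -0.01 over all tested genes. The DMSO libraries are shared with the comparison to uninjured retinas, so a gene that read high in them by chance would read low here.

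gap43 was at 56.4, 22.4 and 66.3 CPM with PLX3397, below every DMSO library, and was lower by a log2 change of -2.38 (SE 0.35, adjusted p = 2.6e-04, edgeR). It still stood above the uninjured retinas, by 2.29 (SE 0.36, adjusted p = 2.1e-04, edgeR). TUBA1A was at 125, 136 and 133 CPM and tubb5 at 57.9, 67.9 and 79.3 CPM with PLX3397. Both tubulins were lower than with DMSO, by -1.88 (SE 0.12) and -2.08 (SE 0.14), and differed from uninjured retinas by 0.02 (SE 0.12) and 0.20 (SE 0.14), which did not pass the test.

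The STMN2 genes were lower with PLX3397 than with DMSO and than in uninjured retinas. STMN2 ENSDARG00000033234 was at 8.03 to 22.2 CPM and STMN2 ENSDARG00000070537 at 22.4, 8.69 and 23.2 CPM, with the low value of each in PLX3397 replicate 2. Against DMSO their log2 changes were -1.37 (SE 0.30) and -1.54 (SE 0.33), and against uninjured retinas -1.14 (SE 0.30) and -1.17 (SE 0.33). The calls against uninjured retinas were lost when only these groups were fitted.

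Both SOX11 genes were lower with PLX3397 than with DMSO, by -1.13 for SOX11 ENSDARG00000077811 and -0.85 for SOX11 ENSDARG00000095743. The former was at 59.1, 23.2 and 44.2 CPM, overlapping the uninjured libraries, and the latter at 92.6, 58.3 and 76.1 CPM, 0.63 above them on the log2 scale (SE 0.15, adjusted p = 0.0037, edgeR). KLF7 ENSDARG00000043821 went the other way. It was at 89.1, 137 and 90.0 CPM with PLX3397, above every DMSO library, and higher by 0.80 (SE 0.15, adjusted p = 0.0015, edgeR).

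With ZVAD-fmk, gap43, TUBA1A, tubb5 and the SOX11 genes were lower than with DMSO. Of the 11 genes, 1 was higher and 5 were lower, where 9.70% of all tested genes were higher and 8.96% lower, and the medians were -0.67 over the 11 and -0.02 over all tested genes. gap43 was at 77.3, 88.4 and 92.4 CPM, a log2 change of -1.55 (SE 0.34, adjusted p = 0.0077, edgeR). TUBA1A was at 206, 195 and 194 CPM and tubb5 at 100.1, 87.8 and 83.1 CPM, changes of -1.28 (SE 0.12) and -1.68 (SE 0.14). The 21 other genes listed as tubulins summed to 5089.6 to 5608 CPM with ZVAD-fmk, within the 5051 to 6335 CPM with DMSO. With PLX3397 they summed to 2694 to 3848 CPM. SOX11 ENSDARG00000077811 changed by -1.06 (SE 0.26), a call lost without ZVAD-fmk replicate 2, and SOX11 ENSDARG00000095743 by -0.54 (SE 0.15), a call lost without DMSO replicate 1 or 2 or any ZVAD-fmk library. The STMN2 genes changed by -0.67 (SE 0.30) and -0.76 (SE 0.33), which did not pass. Both passed when only the compared groups were fitted, without PLX3397 replicate 2 and without the 4 libraries that stood apart. ATF3 and KLF6 passed only without those 4 libraries, where calls over all genes are not given here. KLF7 ENSDARG00000043821 was at 111, 99.3 and 103 CPM, higher by 0.78 (SE 0.15, adjusted p = 0.0037, edgeR).

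Set against uninjured retinas, 5 of the 11 genes were higher and 1 lower with ZVAD-fmk (21.9% and 18.6% of all tested genes), with a median of 0.49 over the 11 and 0.02 over all. These were gap43 (3.12), KLF7 ENSDARG00000043821 (1.05), SOX11 ENSDARG00000095743 (0.94), TUBA1A (0.62) and tubb5 (0.60), and, lower, KLF7 ENSDARG00000073857 (-1.44). With PLX3397, 3 were higher and 3 lower (23.0% and 19.9% of all tested genes), with medians of 0.02 and 0.06. Of the low-level KLF7 ENSDARG00000073857, the fall against uninjured retinas did not pass without untreated replicate 1 or 3 or without replicate 2 or 3 of the drug group compared.

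The drugs act on unlike targets and were compared directly at the same time after injury. Their concentrations are not given in the sources used here. TUBA1A, lower with PLX3397 than with ZVAD-fmk by -0.60 (SE 0.12, adjusted p = 0.014, edgeR), was the only one of the 11 that differed, where 3.43% of all tested genes were higher and 4.81% lower. Without PLX3397 replicate 3 or any ZVAD-fmk library it did not pass. gap43 differed by -0.83 (SE 0.34) and the STMN2 genes by -0.69 (SE 0.30) and -0.78 (SE 0.33), which did not pass the test. Over all 11, the median was -0.31, and 0.01 over all tested genes. Without the 4 libraries that stood apart, 5 of the 11 were lower with PLX3397: gap43 (-0.54), both STMN2 genes (-0.38 and -0.55), TUBA1A and KLF6 (-0.64). How many of all tested genes were called in that setting is not given here.

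Markers of some other cells moved with these changes. Of all tested genes, 18.2% were higher and 13.4% lower after the poke with DMSO. Against DMSO, 17.7% were lower with PLX3397 and 8.96% with ZVAD-fmk. Of 22 tested markers of dividing cells (PCNA and mki67 among them), 21 were higher after the poke with DMSO, and 16 were lower with PLX3397 and 15 with ZVAD-fmk than with DMSO. Their summed level was 103 to 126 CPM in uninjured libraries, 2321 to 2852 CPM with DMSO, 712 to 1236 CPM with PLX3397 and 936 to 1015 CPM with ZVAD-fmk. Of 27 tested microglia and macrophage markers, 17 were higher after the poke, and 21 were lower with PLX3397 and 5 with ZVAD-fmk than with DMSO. Their summed level was 188 to 259 CPM, 237 to 719.9 CPM, 159 to 190.0 CPM and 256 to 283 CPM in the same order of groups.

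Retinal ganglion cells are the neurons whose axons form the optic nerve. Of 28 tested markers of theirs, 1 was higher and 13 were lower after the poke with DMSO, and their summed level went from 2056 to 2422 CPM down to 1349 to 1640.1 CPM. With PLX3397 it was 990.1 to 1349 CPM and with ZVAD-fmk 1194 to 1258 CPM, with 6 markers lower than DMSO with PLX3397 and 1 with ZVAD-fmk. These counts were near or below the shares of all tested genes (17.7% and 8.96%). Neutrophil markers were higher in 5 of 7 after the poke, with a sum of 11.5 to 18.8 CPM before and 711 to 1025 CPM after. MMP9, not made by neutrophils alone, is among these markers and made up most of the sum after the poke. Of 17 markers of newborn neurons, 9 were higher after the poke and 9 lower with PLX3397, 8 with ZVAD-fmk. Rod and cone markers were lower in 27 of 30 with PLX3397 and 25 of 30 with ZVAD-fmk. Müller glia markers summed to 34656 to 55031 CPM without injury and 27817 to 29615 CPM with DMSO. With PLX3397 the sum was 21521 to 27975 CPM and with ZVAD-fmk 28281 to 29499.6 CPM. The part of these cells in the changes of the axon genes was not tested, and in whole retina fewer cells of a type and less RNA per cell cannot be told apart.

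After NMDA in wild-type fish, gap43 and both tubulins again had the largest rises of the 11. Of the 11 genes, 5 were higher and 1 lower than in wild-type uninjured retinas, where 35.6% of the 20254 tested genes were higher and 34.3% lower, so that changes were common over all genes. The medians were 0.30 over the 11 and 0.01 over all tested genes.

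gap43 went from 6.90, 7.04 and 7.70 CPM to 336, 241 and 268 CPM, a 39.1-fold ratio of means and a log2 rise of 5.29 (SE 0.45, adjusted p = 1.3e-08, edgeR). TUBA1A went from 65.5, 70.0 and 58.2 CPM to 643, 679 and 646 CPM, a rise of 3.35 (SE 0.17, adjusted p = 2.2e-11, edgeR). tubb5 went from 16.7, 17.3 and 15.7 CPM to 182, 214 and 177 CPM, a rise of 3.53 (SE 0.24, adjusted p = 7.4e-10, edgeR). None of these groups overlapped, and the spread within each was small beside the rise.

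SOX11 ENSDARG00000095743 rose from 37.7, 40.1 and 40.2 CPM to 138, 113 and 113 CPM, by 1.62 (SE 0.18, adjusted p = 3.1e-07, edgeR). SOX11 ENSDARG00000077811 went from 46.1, 40.3 and 42.0 CPM to 63.6, 48.2 and 46.1 CPM, a log2 change of 0.30 (SE 0.15, adjusted p = 0.080, edgeR). It did not pass the test, but passed without NMDA replicate 3 or when only the compared groups were fitted. The lowest of its NMDA libraries was level with the highest uninjured one. KLF7 ENSDARG00000043821 rose from 40.5, 42.4 and 47.5 CPM to 98.2, 96.2 and 85.6 CPM, a 2.15-fold ratio of means (adjusted p = 1.1e-06, edgeR), and KLF7 ENSDARG00000073857 fell by 1.46 (SE 0.26), from 3.02, 2.60 and 3.55 CPM to 1.04, 1.03 and 1.27 CPM. The 2 KLF7 genes thus moved in opposite directions.

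The STMN2 genes, ATF3 and KLF6 did not pass the test in wild-type fish. STMN2 ENSDARG00000033234 went from 29.8, 26.3 and 26.9 CPM to 24.2, 25.0 and 22.3 CPM, a log2 change of -0.21 (SE 0.33). STMN2 ENSDARG00000070537 went from 42.9, 37.7 and 34.2 CPM to 30.5, 31.9 and 26.5 CPM, a change of -0.37 (SE 0.28), and for neither gene did the groups overlap. ATF3 went from 424, 485 and 515 CPM to 515, 565 and 509 CPM, a change of 0.16 (SE 0.50), and KLF6 from 210.2, 232 and 219.6 CPM to 241, 272 and 276 CPM, a change of 0.25 (SE 0.31). The standard errors are set by all 18 libraries and are wider than the spread of the wild-type groups, since the mutant groups vary more. When only the compared groups were fitted, KLF6 passed as higher and STMN2 ENSDARG00000070537 as lower.

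Markers of other cells changed widely with NMDA. Of all tested genes, 35.6% were higher and 34.3% lower in wild-type fish. In wild-type fish all 21 tested markers of dividing cells were higher, and their summed level went from 64.0 to 71.3 CPM up to 4976 to 5113 CPM. Of 27 ganglion cell markers, 0 were higher and 23 lower, with summed levels of 1789 to 1899.7 CPM before and 579 to 717 CPM after. Newborn neuron markers were higher in 9 and lower in 5 of 17 (919.6 to 931 CPM, then 1238 to 1513 CPM), and Müller glia markers higher in 7 and lower in 12 of 23 (23540.1 to 26594 CPM, then 8673 to 13916 CPM). The lower newborn neuron markers and the higher Müller glia markers were no more common than over all tested genes.

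Microglia and macrophage markers were higher in 17 and lower in 3 of 23 with NMDA, and summed to 157 to 171 CPM and then 273 to 286 CPM. Neutrophil markers were higher in 6 of 7, and their sum went from at most 13.6 CPM up to 2886 to 4951 CPM. MMP9 counts in this sum too. Of 30 rod and cone markers 23 were lower. In both mutants all 21 dividing-cell markers were higher after NMDA as well, while ganglion cell markers were lower in 23 of 27 in csf1ra mutants and 22 of 27 in csf1rb mutants and 1 was higher in each. Of all tested genes, 36.4% were higher and 37.1% lower in csf1ra mutants, and 37.0% and 33.5% in csf1rb mutants. The part of these cells in the changes of the axon genes with NMDA was not tested.

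**Figure D2:**
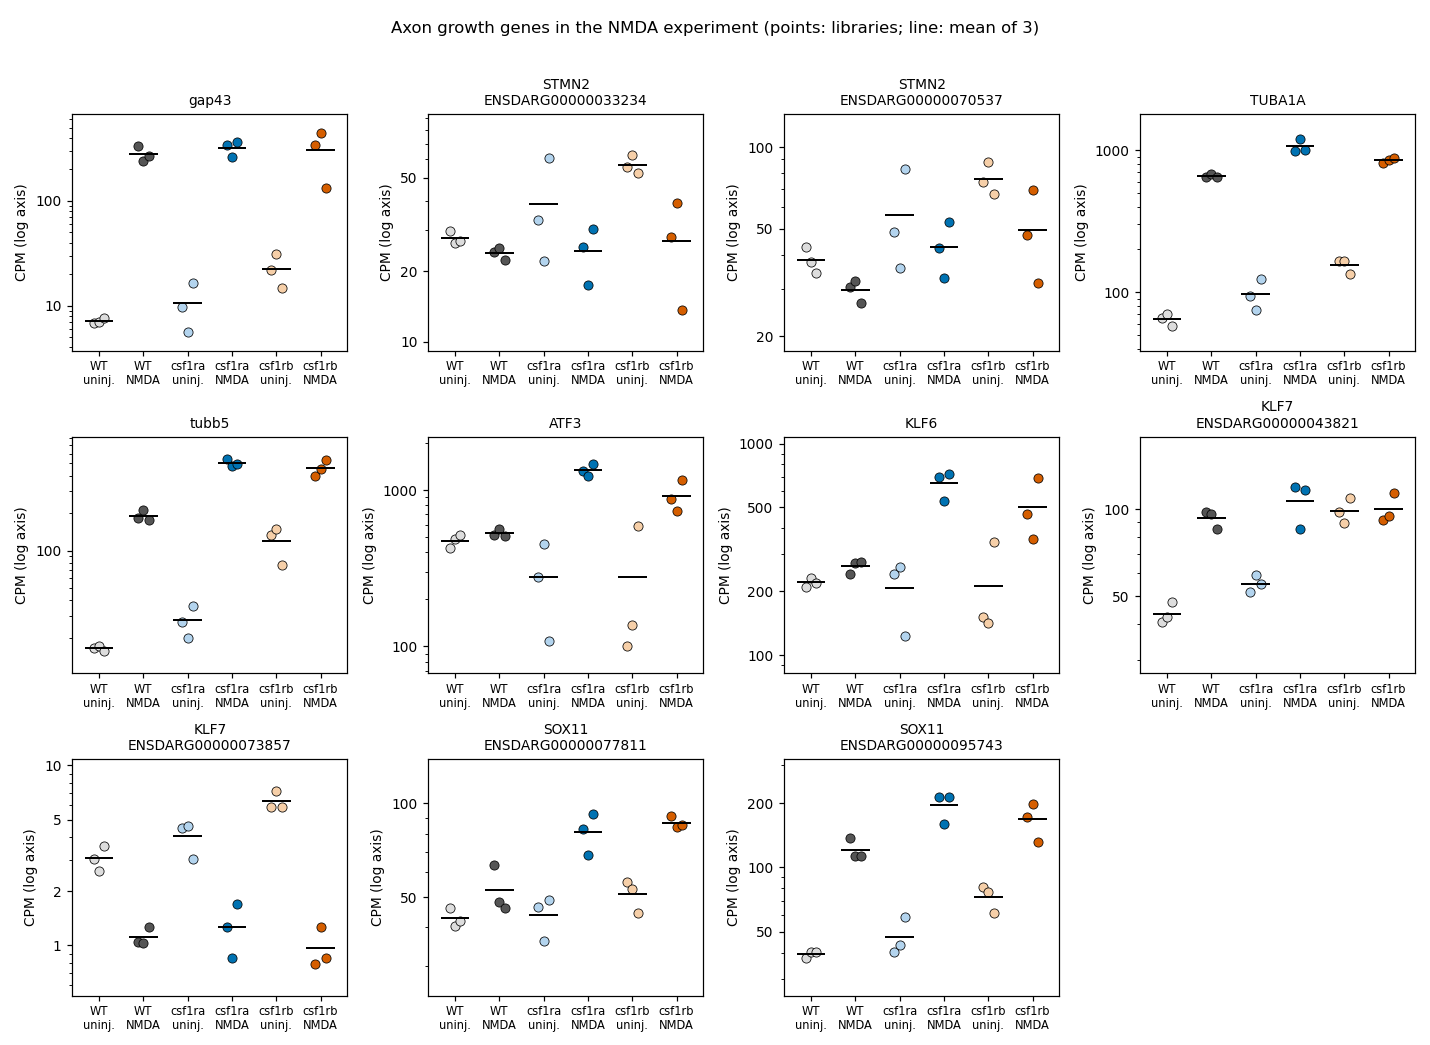
Levels of the 11 genes in the NMDA experiment, in CPM on log axes, with 1 point per library and a line at the mean of 3. gap43, TUBA1A and tubb5 are high in all NMDA groups, csf1rb mutant uninjured retinas sit above wild-type ones for the 8 genes called higher, and ATF3 and KLF6 vary widely in uninjured mutants.

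Uninjured csf1rb mutant retinas already had higher levels of most of these genes. Of the 11, 8 were higher and 0 lower than in wild-type uninjured retinas, where 14.5% of all tested genes were higher and 12.4% lower, and the medians were 1.04 over the 11 and 0.05 over all tested genes. tubb5 was at 133, 149 and 76.7 CPM, against 15.7 to 17.3 CPM in wild-type retinas, a log2 difference of 2.85 (SE 0.23, adjusted p = 2.4e-07, edgeR). gap43 was at 22.1, 30.9 and 14.7 CPM, higher by 1.64 (SE 0.40, adjusted p = 0.0053, edgeR), and TUBA1A at 166, 166 and 135 CPM, higher by 1.27 (SE 0.16, adjusted p = 1.9e-05, edgeR). For all 3 genes every csf1rb library lay above every wild-type library.

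The remaining 5 were KLF7 ENSDARG00000043821 (97.7, 89.8 and 109 CPM, higher by 1.18), KLF7 ENSDARG00000073857 (5.86, 7.22 and 5.90 CPM, by 1.05), both STMN2 genes and SOX11 ENSDARG00000095743 (81.1, 76.4 and 61.5 CPM, by 0.89). STMN2 ENSDARG00000033234 was at 52.3 to 62.4 CPM, higher by 1.04 (SE 0.33, adjusted p = 0.026, edgeR), and STMN2 ENSDARG00000070537 at 74.1, 88.2 and 66.9 CPM, higher by 1.00 (SE 0.28, adjusted p = 0.014, edgeR). The first of these calls was lost without any wild-type uninjured library or csf1rb replicate 1 or 2, and the second without wild-type replicate 3 or csf1rb replicate 2.

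ATF3 was at 101, 138 and 591 CPM in uninjured csf1rb mutants, a log2 difference of -0.78 from wild-type retinas (adjusted p = 0.27, edgeR) that did not pass. Replicate 3 stood far above the others, and without it ATF3 passed the test as lower, by -1.99.

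In uninjured csf1ra mutants, 2 of the 11 were higher and 0 lower (7.94% and 6.74% of all tested genes), with medians of 0.40 and 0.04. TUBA1A was at 93.6, 75.1 and 124 CPM, higher by 0.60 (SE 0.15, adjusted p = 0.016, edgeR), and tubb5 at 27.1, 20.2 and 36.3 CPM, higher by 0.75 (SE 0.22, adjusted p = 0.031, edgeR). Both calls were lost without csf1ra replicate 5, without wild-type replicate 1 or 3 or when only the compared groups were fitted, and that of tubb5 also without csf1ra replicate 1 or wild-type replicate 2. gap43 was at 9.82, 5.58 and 16.3 CPM, a difference of 0.55 (SE 0.40) that did not pass. The csf1ra library with the highest gap43, tubulins and STMN2 levels, replicate 5, had the lowest ATF3 and KLF6, at 109 and 123 CPM. Over all tested genes it was the NMDA-experiment library farthest from the mean of the others of its group, at 0.70 log2 units. Replicates 1 and 4 stood at 0.43 and 0.53.

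Other markers also differed in uninjured mutants. Of all tested genes, 14.5% were higher and 12.4% lower in csf1rb mutants, and 7.94% and 6.74% in csf1ra mutants. In csf1rb mutants, 18 of 21 dividing-cell markers were higher, with a summed level of 114 to 231 CPM against 64.0 to 71.3 CPM, 14 of 27 ganglion cell markers were higher and 1 lower, and 7 of 17 newborn neuron markers were higher and 2 lower. In the same fish 9 of 14 markers of oligodendrocytes and optic nerve were higher and 1 lower, 23 of 30 rod and cone markers were lower, and 16 of 23 microglia markers were lower. Summed rod and cone levels were 5606 to 9293 CPM in csf1rb mutant and 23936 to 28009.7 CPM in wild-type libraries. Müller glia markers summed to 36005 to 38134 CPM in csf1rb mutant, 33106 to 39900.3 CPM in csf1ra mutant and 23540.1 to 26594 CPM in wild-type libraries. In csf1ra mutants, 1 of 21 dividing-cell markers and 4 of 27 ganglion cell markers were higher, and 18 of 23 microglia markers were lower. Summed microglia levels did not follow that count. They were 166 to 235 CPM in csf1ra mutant, 109 to 128 CPM in csf1rb mutant and 157 to 171 CPM in wild-type libraries. The list of microglia markers includes csf1ra and csf1rb, the mutated genes themselves. The part of these cells in the differences of the axon genes was not tested.

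After NMDA, 8 of the 11 genes were higher and 1 lower than in uninjured retinas of csf1ra mutants (36.4% and 37.1% of all tested genes), with a median of 1.65 over the 11 and -0.01 over all. In csf1rb mutants 7 were higher and 2 lower (37.0% and 33.5% of all tested genes), with a median of 1.20 over the 11 and 0.06 over all. gap43 reached 339, 261 and 363 CPM in csf1ra mutants and 342, 448 and 133 CPM in csf1rb mutants, rises of 4.93 (SE 0.44) and 3.77 (SE 0.41). TUBA1A reached 984, 1191 and 1003 CPM and 816, 845 and 885 CPM, rises of 3.44 (SE 0.17) and 2.45 (SE 0.16). tubb5 reached 546, 478 and 495 CPM and 398, 448 and 533 CPM, rises of 4.18 (SE 0.24) and 1.94 (SE 0.22). In every case the NMDA libraries lay above the uninjured ones of the same genotype.

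Both SOX11 genes rose in both mutants. SOX11 ENSDARG00000095743 reached 214, 159.6 and 213 CPM in csf1ra mutants and 173, 199 and 132 CPM in csf1rb mutants, rises of 2.05 (SE 0.18) and 1.20 (SE 0.17). SOX11 ENSDARG00000077811 reached 82.6, 68.1 and 92.4 CPM and 91.0, 84.2 and 85.2 CPM, rises of 0.88 (SE 0.15) and 0.76 (SE 0.15). STMN2 ENSDARG00000033234 was lower after NMDA in csf1rb mutants, at 28.1, 38.9 and 13.7 CPM, by -1.07 (SE 0.33, adjusted p = 0.0072, edgeR). STMN2 ENSDARG00000070537 changed the same way, by -0.62 (SE 0.28, adjusted p = 0.052, edgeR), and just missed the threshold. It passed in 5 of 23 other settings, among them DESeq2 and median-of-ratios scaling. In csf1ra mutants the STMN2 genes changed by -0.67 (SE 0.33, adjusted p = 0.074, edgeR) and -0.39 (SE 0.28, adjusted p = 0.21, edgeR) in the same order. Neither passed, but they passed in 3 and 1 of 23 other settings. The csf1rb change minus the wild-type change was -0.86 (adjusted p = 0.29, edgeR) and -0.26 (adjusted p = 0.76, edgeR), and neither passed.

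ATF3 and KLF6 passed the test after NMDA in both mutants. ATF3 went from 279, 450.1 and 109 CPM to 1332, 1226 and 1467 CPM in csf1ra mutants, a rise of 2.26 (SE 0.52, adjusted p = 8.2e-04, edgeR). In csf1rb mutants it went from 101, 138 and 591 CPM to 876, 736 and 1161 CPM, a rise of 1.74 (SE 0.51, adjusted p = 0.0058, edgeR). KLF6 rose by 1.65 (SE 0.32), to 698, 538 and 721 CPM, and by 1.24 (SE 0.32), to 464, 353 and 688 CPM. The uninjured mutant libraries differed up to several-fold among themselves, while the NMDA libraries of the mutants lay above all of them.

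That ATF3 changed in the mutants and did not pass in wild-type fish does not show a difference between genotypes. The difference of the changes was 2.11 for ATF3 (SE 0.71, adjusted p = 0.090, edgeR) and 1.39 for KLF6 (SE 0.44, adjusted p = 0.073, edgeR) in csf1ra mutants. In csf1rb mutants it was 1.58 (SE 0.71, adjusted p = 0.19, edgeR) and 0.99 (SE 0.44, adjusted p = 0.19, edgeR). None of the 4 passed the test. In csf1ra mutants both passed without csf1ra uninjured replicate 4, without csf1rb uninjured replicate 3 or when only the compared groups were fitted. There KLF6 also passed in DESeq2. In csf1rb mutants both passed only without csf1rb uninjured replicate 3, the uninjured csf1rb library with the highest ATF3.

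Compared at the same injured stage, the NMDA retinas of both mutants had higher levels of some genes than those of wild-type fish. In csf1ra mutants 5 of the 11 were higher and 0 lower (9.24% and 13.2% of all tested genes): tubb5 by 1.41 (SE 0.22), KLF6 by 1.31 (SE 0.32), SOX11 ENSDARG00000095743 by 0.69 (SE 0.17), TUBA1A by 0.69 (SE 0.15) and SOX11 ENSDARG00000077811 by 0.62 (SE 0.15). The median was 0.62 over the 11 and -0.01 over all tested genes. In csf1rb mutants 3 were higher and 0 lower (11.9% and 11.4% of all tested genes): tubb5 by 1.27 (SE 0.22), KLF6 by 0.93 (SE 0.31) and SOX11 ENSDARG00000077811 by 0.72 (SE 0.15). The median was 0.47 and 0.00 over all, and the call of KLF6 was lost in 9 of 23 other settings, among them the loss of any wild-type NMDA library, wild-type uninjured replicate 1 or 3, csf1ra NMDA replicate 1 or csf1rb NMDA replicate 1 or 4. With 1 library left out, 2 to 6 of the 11 were called in csf1rb mutants against wild-type NMDA, and 3 with all libraries. Over all genes, 3435 to 5992 were called with 1 library left out, and 4706 with all libraries. gap43 did not differ beyond its spread between genotypes after NMDA, at 0.19 (SE 0.37) and 0.13 (SE 0.37). ATF3 differed by 1.34 in csf1ra mutants (adjusted p = 0.066, edgeR), which did not pass, but passed in 6 of 23 other settings. In csf1rb mutants it differed by 0.80 (adjusted p = 0.28, edgeR) and passed in 1 of 23 other settings. Its NMDA libraries stood at 1226 to 1467 CPM and 736 to 1161 CPM in these mutants, against 509 to 565 CPM in wild-type fish.

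Microglia markers were lower in both comparisons, 15 of 23 in csf1ra mutants and 21 of 23 in csf1rb mutants, and rod and cone markers in 19 and 23 of 30. The summed microglia levels lay closer together, at 248 to 270.2 CPM in csf1ra mutants, 251 to 272 CPM in csf1rb mutants and 273 to 286 CPM in wild-type fish. Of all tested genes, 9.24% were higher and 13.2% lower in csf1ra mutants, and 11.9% and 11.4% in csf1rb mutants. Ganglion cell markers were higher in 7 of 27 and lower in 3 in csf1ra mutants, and higher in 11 and lower in 1 in csf1rb mutants. Dividing-cell markers had a median difference of 0.10 in csf1ra mutants and -0.35 in csf1rb mutants, where 2 of 21 were lower. Whether these move with the tubulins and transcription factors was not tested.

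The log2 change with NMDA in csf1rb mutants minus that in wild-type fish was above 0 for 0 and below 0 for 4 of the 11 genes by the test (4.10% and 4.07% of all tested genes), with a median difference of -0.86 over the 11 and -0.04 over all tested genes. These were tubb5 (-1.58, SE 0.31, adjusted p = 0.0047, edgeR), KLF7 ENSDARG00000043821 (-1.08, SE 0.19, adjusted p = 0.0023, edgeR), TUBA1A (-0.90, SE 0.22, adjusted p = 0.017, edgeR) and KLF7 ENSDARG00000073857 (-1.22, SE 0.37, adjusted p = 0.049, edgeR). The rises of tubb5, TUBA1A and KLF7 ENSDARG00000043821 were thus smaller in the mutants, and the fall of KLF7 ENSDARG00000073857 was larger. All 4 started higher in uninjured csf1rb mutants, and the same uninjured libraries enter both comparisons. The injured levels of TUBA1A and tubb5 in csf1rb mutants were not below those of wild-type fish, and KLF7 ENSDARG00000043821 was at 92.0, 95.0 and 114 CPM after NMDA, with a change of 0.03 (SE 0.13). For KLF7 ENSDARG00000073857 the change with NMDA was -2.68 in the mutants against -1.46, and the call of that difference was lost in 15 of 23 other settings, among them the loss of any wild-type or uninjured csf1rb library, csf1rb NMDA replicate 1 or 4 or replicate 1 of either csf1ra group. The call of TUBA1A was lost without wild-type uninjured replicate 3.

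The difference for gap43 in csf1rb mutants was -1.52 (SE 0.54, adjusted p = 0.093, edgeR), which did not pass. It passed in 3 of 23 other settings, among them DESeq2 and the loss of csf1rb NMDA replicate 2. For csf1ra mutants 0 of the 11 differences passed in edgeR (2.56% of all tested genes above 0 and 3.27% below), with medians of 0.10 and -0.09. At an unadjusted p under 0.05 there were 4, and DESeq2 called 2 of the 11, both above 0. For these counts the shares of all genes are not given here. In csf1rb mutants the difference was also below 0 for 18 of 21 dividing-cell markers. Of all tested genes, 4.07% were below 0 by the test. The summed level of these markers after NMDA was 3791 to 4491 CPM against 4976 to 5113 CPM in wild-type fish. In uninjured retinas it was already higher in csf1rb mutants, at 114 to 231 CPM against 64.0 to 71.3 CPM, and these libraries enter the difference.

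**Figure D3:**
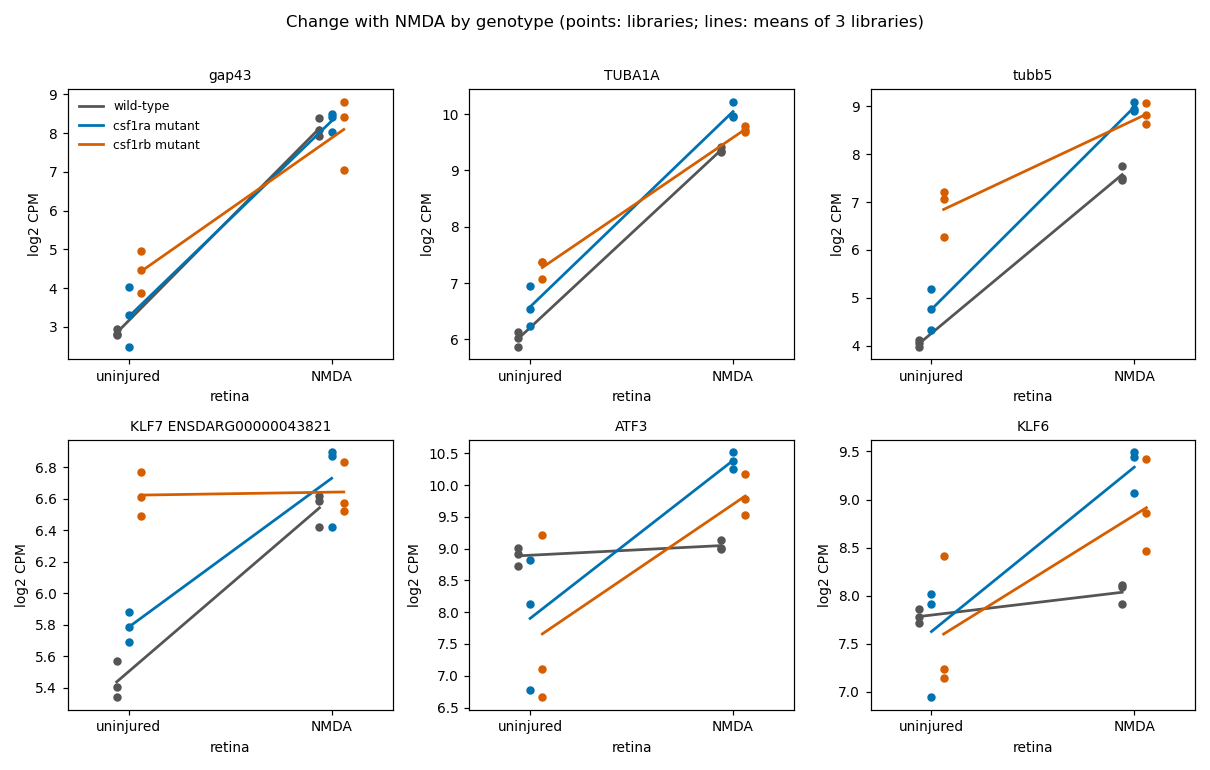
Levels of 6 genes before and after NMDA in each genotype, in log2 CPM, with 1 point per library and lines between means of 3. For TUBA1A, tubb5 and KLF7 ENSDARG00000043821 the csf1rb line starts higher and is flatter than the wild-type line, while for ATF3 and KLF6 the uninjured mutant libraries spread widely.

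Near-identical tubulin genes were counted beside the members, and reads that fit several of them are split by estimation, so each single tubulin value is uncertain. tuba1b, another alpha tubulin, rose from 64.2 ± 4.12 to 312 ± 25.7 CPM (SD, n = 3) after the poke, a log2 change of 2.28. With ZVAD-fmk it stood at 341 ± 6.65 CPM, 0.13 from DMSO (SE 0.16, not passing the test), where TUBA1A was lower. tuba1c changed by 0.30 after the poke (SE 0.16, not passing), and tubb2b rose by 1.62. With NMDA in wild-type fish tuba1b rose by 3.53, tubb2b by 2.98 and tuba1c by 0.85. In uninjured csf1rb mutants tuba1b, tubb2b and tuba1c were higher by 0.96, 0.97 and 0.85.

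Beyond the members, 20 tubulins were tested. Of these, 10 rose and 1 fell after the poke with DMSO (18.2% and 13.4% of all tested genes), and 16 rose and 2 fell after NMDA in wild-type fish (35.6% and 34.3%), with medians of 0.42 and 0.88. The largest rises were of tubb6, from 0.595 ± 0.453 to 37.6 ± 7.75 CPM after the poke and from 0.439 ± 0.122 to 84.7 ± 3.67 CPM after NMDA, and of tube1, an epsilon tubulin (log2 changes 4.37 and 6.83). tubb4bl fell in both (-0.94 and -1.87), and tuba2 fell with NMDA (-1.14).

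Of 60 other growth cone and neuronal cytoskeleton genes, 10 rose and 7 fell after the poke (18.2% and 13.4% of all tested genes), with a median of -0.03. After NMDA 19 rose and 34 fell (35.6% and 34.3%), with a median of -0.74. tmsb, of the actin-binding beta thymosins, rose by 3.36 and 5.10. STMN1 ENSDARG00000004169, another stathmin, rose from a mean of 2.59 to 23.8 CPM after the poke and by 5.47 with NMDA. STMN3, a stathmin of neurons, fell (-1.31 and -2.87). The neurofilament gene nefmb fell by 2.07 after the poke, and FSCN1 ENSDARG00000037747, which bundles actin, fell by 2.32 with NMDA.

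Of 58 injury and regeneration factors, 15 rose and 13 fell after the poke (18.2% and 13.4% of all tested genes), with a median of -0.21. Of 57 tested with NMDA, 16 rose and 22 fell (35.6% and 34.3%), with a median of -0.32. clcf1, a cytokine of the CNTF family, was at 0.00904 ± 0.0157 CPM in untreated uninjured retinas, from 1 count in all, and at 58.9 ± 2.63 CPM after the poke. With NMDA it went from 0.0260 ± 0.0226 CPM to 171 ± 30.8 CPM. MMP9, a matrix protease also made by neutrophils, went from 0.788 ± 0.0801 to 781 ± 151 CPM after the poke, and LIN28A ENSDARG00000016999, an RNA-binding protein of reprogrammed cells, from 0.0252 ± 0.0436 to 204 ± 24.5 CPM with NMDA. The immediate early genes FOSB (-1.11 and -2.13) and egr1 (-1.16, poke) fell, as did NRN1 ENSDARG00000042656, which promotes neurite growth (-2.19, NMDA).

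Of 21 other SoxC and Krüppel-like genes, 4 rose and 5 fell after the poke (18.2% and 13.4% of all tested genes), with a median of -0.41. Of 19 tested with NMDA, 4 rose and 7 fell (35.6% and 34.3%), with a median of -0.47. SOX4 ENSDARG00000004588, of the same SoxC family as SOX11, rose from 65.2 ± 15.0 to 216 ± 29.2 CPM after the poke and from 56.6 ± 1.75 to 341 ± 31.5 CPM after NMDA. klf2b rose by 1.98 after the poke and the low-level KLF3 by 1.87 with NMDA. KLF11 ENSDARG00000030844 (-2.82 and -3.00), klf6b (-2.17, poke) and KLF15 (-2.77, NMDA) fell.

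Of 65 axon guidance and adhesion genes, 8 rose and 21 fell after the poke (18.2% and 13.4% of all tested genes), with a median of -0.40. Of 63 tested with NMDA, 14 rose and 41 fell (35.6% and 34.3%), with a median of -0.90. NRP2 ENSDARG00000096546, a receptor for semaphorins, rose by 3.59 and 5.94, NRP2 ENSDARG00000038446 by 5.64 with NMDA, and the low-level SEMA3D by 3.46 after the poke. NTN1 ENSDARG00000105112, a netrin, fell by 2.15 after the poke, where ntn2 had 57 counts over the uninjured libraries and 0 after it. NFASC, an adhesion protein of the axon's initial segment and nodes, and TNR, a matrix protein that limits axon growth, fell with NMDA (-3.32 and -3.52). Against the poke with DMSO, 31 of these 65 genes were higher and 4 lower with PLX3397 (16.5% and 17.7% of all tested genes), and 24 were higher and 2 lower with ZVAD-fmk (9.70% and 8.96%).

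**Figure D4:**
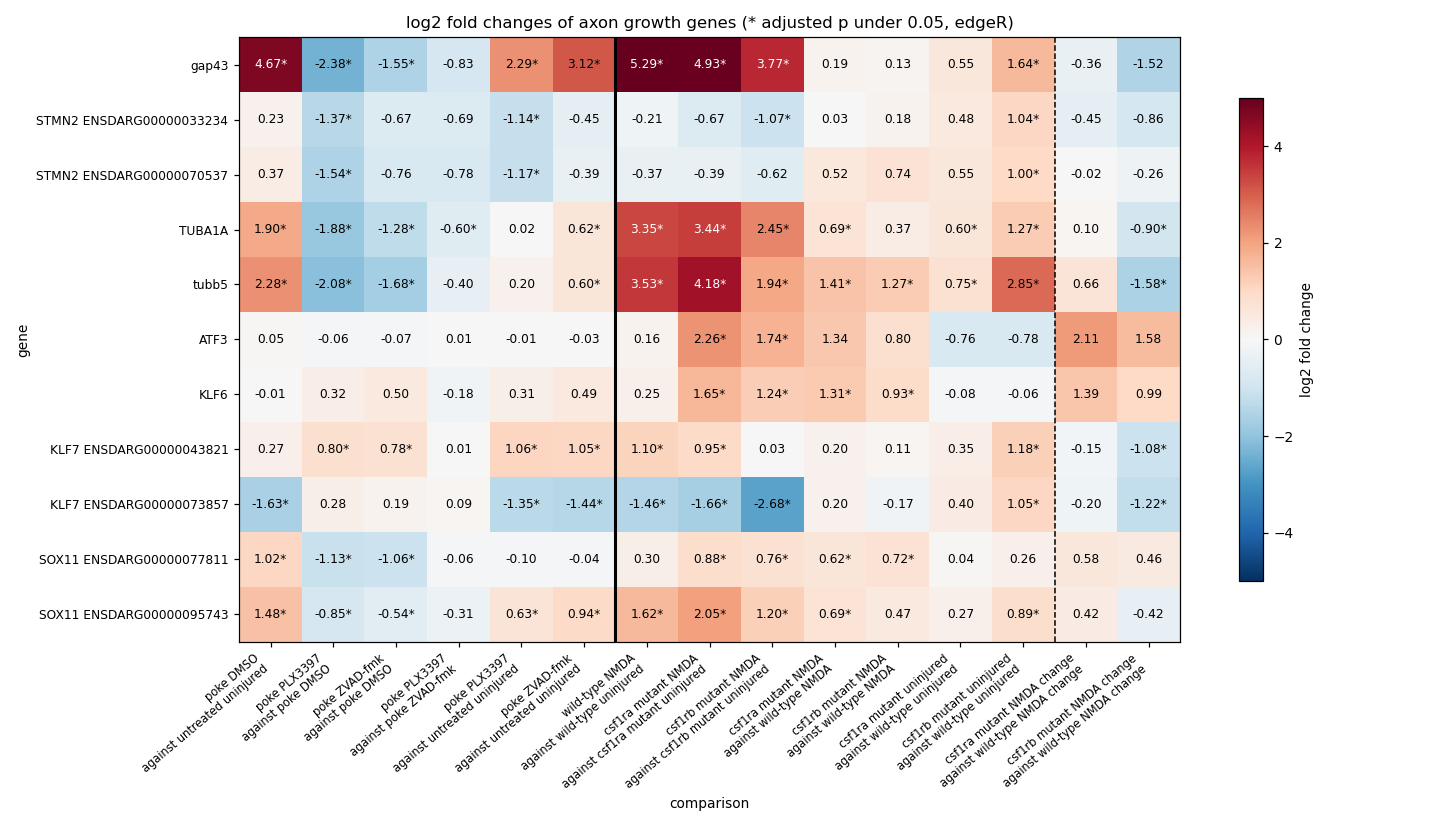
Log2 changes of the 11 genes in all 15 comparisons, with an asterisk where the adjusted p of edgeR was under 0.05. The solid line parts the needle poke comparisons from the NMDA ones, and the dashed line the differences between changes. gap43 and the tubulins have the largest rises in the columns of the poke with DMSO and of NMDA against uninjured retinas, and the csf1rb uninjured column holds 8 called genes.

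Over the 10 group means, centred within each experiment, the members did not share 1 pattern. The closest pair were the STMN2 genes, with a root mean square distance of 0.17 log2 units, followed by ATF3 and KLF6 (0.36), TUBA1A and tubb5 (0.45), KLF6 and SOX11 ENSDARG00000077811 (0.46), and then the SOX11 genes, and KLF6 and KLF7 ENSDARG00000043821 (0.47 each). gap43 was 0.95 from TUBA1A and 0.96 from tubb5, and its range over groups was the widest, 4.75 log2 units in the needle poke and 5.45 in the NMDA experiment. The 2 KLF7 genes were 1.15 apart.

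Among 15829 other named genes with a mean of at least 1 CPM in both experiments, the nearest to gap43 were CENPI (0.36), cip2a and CHTF8 (0.37 each). The nearest to TUBA1A were h2az2b (0.19), sinhcaflas (0.24) and hmgb2b (0.25), and to tubb5 MARCKS ENSDARG00000004049 (0.36), dlb (0.41) and prxl2b (0.54). ATF3 was nearest to AHSA1 ENSDARG00000100317 (0.10), tomm34 (0.19) and zgc:112998 (0.20), and KLF6 to prrg1 (0.12), FBXO46 (0.13) and RFK (0.15). STMN2 ENSDARG00000033234 was nearest to tppp2 (0.19), tac3a (0.22) and ubald1a (0.23), and STMN2 ENSDARG00000070537 to ATP6V1C1 ENSDARG00000035880 and YWHAG ENSDARG00000071658 (0.23 each) and KIF3C ENSDARG00000079500 (0.24).

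KLF7 ENSDARG00000043821 was nearest to TOX3 (0.14), wu:fc21g02 and MAP7D1 ENSDARG00000104701 (0.17 each), and KLF7 ENSDARG00000073857 to pip4k2ab (0.15), rab11fip5a (0.16) and CYP7B1 (0.18). SOX11 ENSDARG00000077811 was nearest to si:dkey-56m19.5 (0.15), MAPK12 ENSDARG00000042021 (0.19) and ASAP2 (0.21), and SOX11 ENSDARG00000095743 to RCC2 (0.17), pabpc1a (0.19) and acp1 (0.20). These distances describe 10 group means that share libraries, and they carry no test.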

How the data were processed

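Per the submitters' processing notes, the upstream tools were RSEM 1.3.3, STAR 2.7.8a, cutadapt 4.8 and FastQC 0.11.8, with the genome build GRCz11. The authors deposited 1 table per experiment with RSEM's expected counts per gene, listed as whole numbers and not scaled between libraries. Of 21 columns in the needle poke table, 9 match no sample and were not used. The 4 reporter rows were left out, and 29201 of the 32520 Ensembl IDs have a symbol. In each experiment edgeR 4.0.16 (R 4.3.3, limma 3.58.1, TMM scaling, filterByExpr, robust quasi-likelihood F test, two-sided) fitted all groups together, with 21334 and 20254 genes kept. The label batches are the experiments, which were never fitted together. P-values were adjusted by Benjamini-Hochberg over all tested genes of a comparison. Calls were made at adjusted p under 0.05. "Rose", "fell", "higher" and "lower" refer to called genes. Log2 changes come from the fit, and distances use log2 CPM with a prior count of 2. The fit was tested on simulated data with only 67 genes changed 1.5-fold, 67 changed 2-fold and 66 changed 4-fold in each comparison. For the poke with DMSO against uninjured retinas, it called 4.48% of 1.5-fold, 43.3% of 2-fold and 80.3% of 4-fold changes. For uninjured csf1rb mutants against wild-type retinas, it called 10.4%, 53.7% and 84.8%. A gene that did not pass may thus still have changed. DESeq2 1.42.0, other scaling, no filter, fewer groups, a replicate block and left-out libraries were the alternatives.

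Lists of pathway genes and cell type markers leave out the members. Named list genes are the called ones with the 2 largest rises and falls in the wild-type injury comparisons, and up to 3 markers per list. The tubulins tuba1b, tuba1c and tubb2b were chosen after their values were seen. The members, lists and tests were chosen with earlier results of these data known. No 2 libraries of a group were copies, as chi-square per degree of freedom was at least 7.73 in 30 pairs.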

Additional observations from a re-analysis of the deposited data

Results flagged for a closer look

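The change with NMDA differed between csf1rb mutants and wild-type fish, by a test of the difference itself in edgeR, for 4 of the 11 genes. Of all tested genes, the difference was above 0 for 4.10% and below 0 for 4.07%. The log2 difference of the changes was -0.90 for TUBA1A, -1.58 for tubb5, -1.08 for KLF7 ENSDARG00000043821 and -1.22 for KLF7 ENSDARG00000073857. All 4 genes were higher in uninjured csf1rb mutants than in wild-type uninjured retinas, by 1.27, 2.85, 1.18 and 1.05. The same uninjured libraries enter both comparisons. The call of KLF7 ENSDARG00000073857 was lost in 15 of 23 other settings, and that of TUBA1A without wild-type uninjured replicate 3.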

How the results depend on the processing

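Of 165 results for single genes, 79 were called, and 64 of these were called in every other setting tried (18 for the needle poke, 23 for NMDA). Of the 86 not called, 50 were never called. KLF6 after the poke turned from -0.01 to 0.26 without the 4 libraries that stood apart. In that setting 13 of 66 results gained a call, 0 lost one, and 1, that of KLF6, changed sign. The 4 libraries were picked from these same data, and leaving out the farthest library of each group tends to narrow the spread. Without those libraries 10 of the 11 genes were called with ZVAD-fmk against DMSO, 10 with ZVAD-fmk against uninjured and 5 with PLX3397 against ZVAD-fmk. DESeq2 called 2 with PLX3397 against ZVAD-fmk and 2 in the csf1ra difference of changes. With only the compared groups fitted, 3 were called with PLX3397 against uninjured, 5 in csf1rb mutants against wild-type NMDA, 0 in uninjured csf1ra mutants and 2 in the csf1ra difference. In wild-type fish after NMDA, KLF6, STMN2 ENSDARG00000070537 and SOX11 ENSDARG00000077811 were then called as well. Calls over all genes in these settings are not given here. The counts thus show how calls depend on the processing, not a trait of the 11 genes. The cause was not tested. With 1 library left out, counts ran from 0 to 1 (PLX3397 against ZVAD-fmk), 0 to 3 (uninjured csf1ra mutants), 2 to 6 (csf1rb mutants against wild-type NMDA), 0 to 2 and 2 to 5 (csf1ra and csf1rb differences).

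With the replicate number as a block, 6 genes were called in csf1rb mutants against wild-type NMDA, 0 in uninjured csf1ra mutants and 1 in the csf1ra difference. Calls over all genes with the block are not given here. Of same-numbered libraries, 3 of 18 needle poke pairs and 2 of 32 NMDA pairs correlated above 0.1, with medians of -0.03 and 0.01. Of differently numbered ones, 3 of 36 and 7 of 103 pairs did, with medians of 0.02 and 0.00.

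Counts over all genes moved as well. With 1 library left out, PLX3397 against ZVAD-fmk gave 282 to 2645 genes against 1758, ZVAD-fmk against DMSO 2344 to 4698 against 3981, and uninjured csf1ra mutants 1595 to 4380 against 2975. The csf1ra and csf1rb differences gave 597 to 1610 against 1181 and 984 to 2712 against 1656. The comparison of csf1rb mutants with wild-type NMDA gave 3435 to 5992 against 4706. KLF7 ENSDARG00000073857 rests on 88 to 391 counts per library in the needle poke and 21 to 206 in the NMDA experiment, which limits its precision.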
